A study of Mus musculus with 6 samples.

Results

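The 10 genes described here form much of the repressor arm of the circadian clock, with its activator BMAL1 and one output factor. They are Per1, Per2, Per3, Arntl (the gene for BMAL1), Nr1d1, Nr1d2, Bhlhe40, Bhlhe41, Gm129 (now named Ciart, the gene for CHRONO) and Dbp. All 10 were found by gene name in the authors' deposited table of 17385 genes, which compares messenger RNA of the hippocampus between 3 sATF6-KI and 3 control samples. The members were chosen from the fold changes of this same comparison, so those fold changes are given as a description. Mice of both groups were C57BL/6 and 2 months old, and both carried Emx1-Cre, a Cre recombinase expressed in the dorsal forebrain. The sATF6-KI mice, genotype Rosa26-sATF6-MER;Emx1-Cre, also carried a Rosa26 allele for short-form ATF6 fused to MER, and the control mice, genotype EMX1-Cre, did not. MER is a mutated hormone-binding domain of the estrogen receptor, and dosing with a ligand is not stated in the sources used here. The sex of the mice and the hour at which tissue was taken are likewise not stated in the sources used here, nor is whether each sample came from a separate mouse, so p-values measure the spread between these samples, which may be technical. Values of single samples are not shown, because the columns that hold them carry names that fit no label.

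The mammalian clock is a feedback loop of transcription. BMAL1 pairs with CLOCK or NPAS2, binds E-boxes and switches on the Per, Cry, Nr1d, Bhlhe40, Bhlhe41, Ciart and Dbp genes, whose PER, CRY, DEC and CHRONO proteins then hold the pair back. REV-ERB proteins, from Nr1d1 and Nr1d2, repress Arntl at ROR elements, so that Arntl RNA peaks at the opposite time of day to Nr1d1, Per and Dbp RNA in most tissues. The hippocampus has such a clock, which is set by the suprachiasmatic nucleus of the hypothalamus. Per1 is also an immediate early gene, which CREB and the glucocorticoid receptor can induce without the loop.

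ATF6 itself is an endoplasmic reticulum (ER) membrane protein whose released cytosolic part switches on genes of the unfolded protein response. Atf6 was 1.43-fold and Esr1, the estrogen receptor gene, 68-fold higher in sATF6-KI per the authors' deposited table, and whether transgene reads were counted there was not tested. All 10 of a list of 10 known ATF6 target genes rose at an authors' adjusted p under 0.05, as 3.41% of all genes did. Their median log2 fold change was 2.35, against 0.005 over all genes. Markers of glutamatergic neurons were abundant: the 7 listed had an authors' baseMean, the mean normalized count over all libraries, of 930 to 159768. Markers of the suprachiasmatic nucleus and hypothalamus were low. Of 9 listed, 8 had a row in the authors' deposited table, with a baseMean of 4 to 656, and the most abundant, Vip, is also made by cortical and hippocampal interneurons.

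Promoters of the clock genes are shown first, since clock genes are known by the short elements through which they regulate each other. RefSeq promoter windows (GRCm38.p6) were matched for 8 of the 10 genes, in 10 windows that run from 250 bases before to 50 bases after a start site. Per2 and Bhlhe40 were not matched. The stretches below are read 5′ to 3′ along the gene and stop at the base before the start site. Those of Gm129, Bhlhe41 and the first Per1 window carry E-boxes (CACGTG), the first Per1 window and Per3 carry D-boxes (TTATGNAA), the element of DBP and its relatives, and capitals mark both. In the second Per1 window capitals mark the CRE core (TGACG), which CREB and ATF family factors share.
Per1, first window, chr11:69098699-69098948, plus strand: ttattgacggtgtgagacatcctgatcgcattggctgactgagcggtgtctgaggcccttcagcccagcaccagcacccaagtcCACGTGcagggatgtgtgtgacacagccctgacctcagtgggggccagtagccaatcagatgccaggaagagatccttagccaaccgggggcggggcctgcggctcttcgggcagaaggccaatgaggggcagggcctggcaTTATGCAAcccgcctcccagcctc
Per1, second window, chr11:69099902-69100151, plus strand: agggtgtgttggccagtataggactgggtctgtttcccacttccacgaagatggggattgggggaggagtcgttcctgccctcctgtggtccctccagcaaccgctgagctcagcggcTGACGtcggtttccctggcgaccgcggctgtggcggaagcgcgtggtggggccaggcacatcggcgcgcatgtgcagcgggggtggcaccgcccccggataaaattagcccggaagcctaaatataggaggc
Per3, chr4:151044666-151044915, minus strand: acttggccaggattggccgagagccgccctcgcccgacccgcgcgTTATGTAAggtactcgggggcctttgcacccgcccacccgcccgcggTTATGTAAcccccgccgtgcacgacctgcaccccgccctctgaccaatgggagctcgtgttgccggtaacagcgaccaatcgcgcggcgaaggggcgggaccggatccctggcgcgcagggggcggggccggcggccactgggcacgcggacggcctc
Gm129, chr3:95882229-95882478, minus strand: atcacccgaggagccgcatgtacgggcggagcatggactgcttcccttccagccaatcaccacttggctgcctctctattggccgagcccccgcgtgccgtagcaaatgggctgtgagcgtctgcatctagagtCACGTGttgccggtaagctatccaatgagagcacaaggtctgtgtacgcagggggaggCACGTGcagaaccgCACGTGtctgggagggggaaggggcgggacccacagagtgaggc
Bhlhe41, chr6:145865421-145865670, minus strand: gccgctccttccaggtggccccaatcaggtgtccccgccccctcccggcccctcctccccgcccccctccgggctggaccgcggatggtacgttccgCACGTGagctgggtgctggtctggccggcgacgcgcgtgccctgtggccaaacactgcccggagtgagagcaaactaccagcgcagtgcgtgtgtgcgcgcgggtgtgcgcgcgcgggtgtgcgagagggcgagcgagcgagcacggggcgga
Arntl has a match to the ROR core AGGTCA just after its second start site, shown in capitals within 30 bases.
Arntl, chr7:113207526-113207555, plus strand: agggaaggcagaaagtAGGTCAgggacgga

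Gm129 held 3 E-boxes, whose first bases lie at -116, -58 and -44 from the start site, and Per1 and Bhlhe41 held 1 each, at -166 and -153. An E-box was thus found in 3 of 8 clock genes with a window, against 8.09% of all 27025 genes with one. Among the 12590 measured genes with a window the share was 11.1%. Nr1d1 held the E-prime box CACGTT at -28, on the strand opposite to the gene, and 5.44% of all genes held this box. D-boxes lay at -205 and -158 in Per3 and at -24 in Per1, that is in 2 of 8 clock genes against 3.99% of all genes. The ROR core AGGTCA, which other nuclear receptors bind too, was present in Arntl, Nr1d2 at -77 and, opposite to the gene, Per1 at -137. That is 3 of 8 clock genes against 18.1% of all genes. Of 9 ATF6 target genes with a window, 4 held the ROR core, 1 an E-box, 1 the E-prime box and 0 a D-box.

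No full CRE (TGACGTCA), which contains the CRE core and was present in 2.03% of all genes, was found in the 10 windows. Among the clock genes the CRE core lay only in Per1, in both of its windows (at -246 in the first and -132 in the second), against 23.0% of all genes. Both elements named for ATF6 were searched as well: the ER stress element, CCAAT and CCACG 9 bases apart, and the UPRE, TGACGTGG, whose first bases match the CRE core. The ends of both can overlap an E-box. Neither was in a clock gene window, while 3 of 9 ATF6 target genes with a window held the ER stress element, against 0.137% of all genes, and 0.714% of all genes held the UPRE. Searches were of both strands and exact, and a window without a match says only that these letters are not in it.

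**Figure D1:**
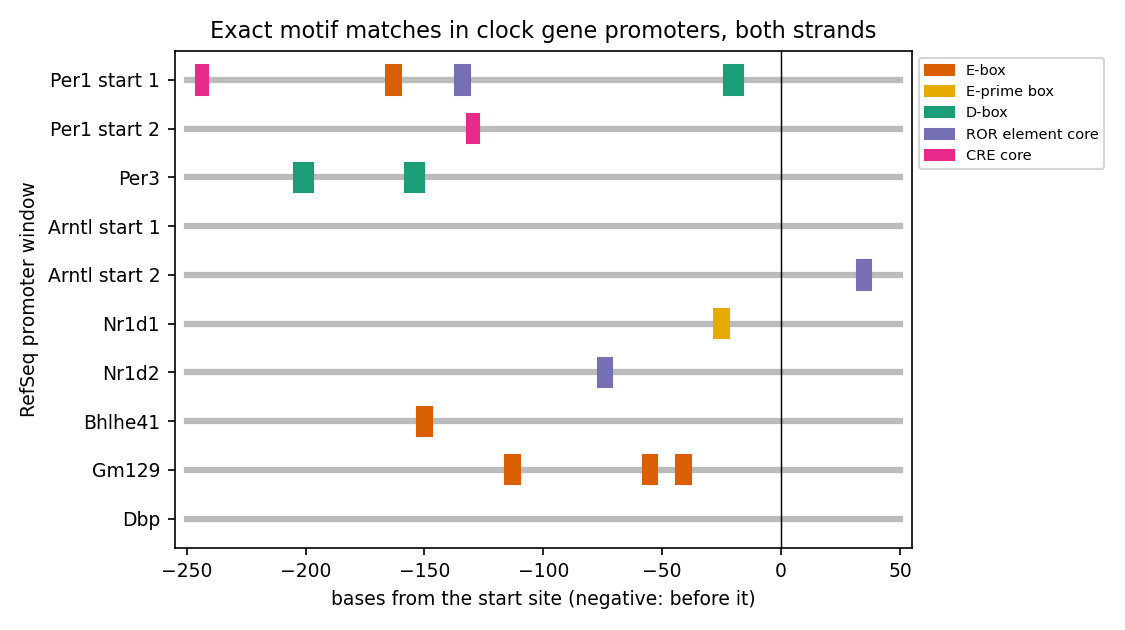
Exact matches of 5 short elements (colours) in the 10 RefSeq promoter windows of 8 clock genes, by distance in bases from the start site. Gm129 holds 3 E-boxes, Per3 2 D-boxes, and the first Per1 window 4 kinds of element.

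In the comparison of sATF6-KI with control, 9 of the 10 clock genes were called, that is, had an authors' adjusted p under 0.05, where 5.34% of all genes were. Per1 and Arntl were the 2 that were higher in sATF6-KI (3.41% of all genes), and Per2, Per3, Nr1d2, Bhlhe40, Bhlhe41, Gm129 and Dbp were the 7 that were lower (1.93% of all genes). Nr1d1 was the 1 that was not called. These counts follow from how the genes were chosen, and nothing is read from them. The log2 fold changes of the 7 lower genes lay between -0.65 and -0.21, and the median of all 10 was -0.27, against 0.005 for all genes. In such whole-tissue RNA, fewer cells of a type and less RNA per cell cannot be told apart.

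**Figure D2:**
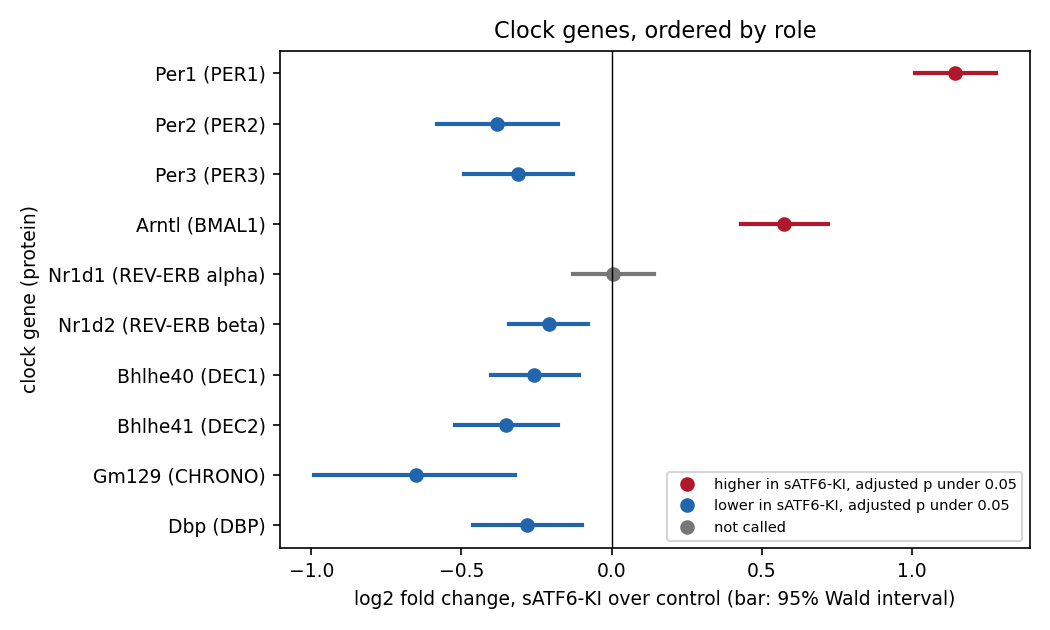
Log2 fold change of each clock gene in sATF6-KI over control, from the authors' deposited table, with its 95% Wald interval. Per1 (1.14) and Arntl (0.57) lie to the right of 0, Nr1d1 (0.01) on it, and the other 7 to the left.

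The PERIOD genes encode the proteins that carry CRY into the nucleus to repress CLOCK and BMAL1, and they did not move together. Per1 (ENSMUSG00000020893, chromosome 11 from 69095217 to 69109960, GRCm38) had a log2 fold change of 1.14 ± 0.07 (Wald standard error) per the authors' deposited table. In sATF6-KI it was therefore 2.21-fold higher per the authors' deposited table, with a 95% Wald interval of 2.01 to 2.43. It stood 73rd by size among the 592 genes called higher. Per2 (ENSMUSG00000055866, chromosome 1 from 91415982 to 91459324, GRCm38) was 1.30-fold lower per the authors' deposited table (95% interval 1.14 to 1.5). Per3 (ENSMUSG00000028957, chromosome 4 from 151003652 to 151044665, GRCm38), which in mice is the least needed of the family for a running clock, was 1.24-fold lower per the authors' deposited table (95% interval 1.09 to 1.40). The log2 fold change of Per1 thus exceeded that of Per2 by 1.53 and that of Per3 by 1.45.

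Arntl (ENSMUSG00000055116, chromosome 7 from 113207465 to 113314126, GRCm38) encodes BMAL1, the partner that CLOCK and NPAS2 need to bind DNA. It was 1.49-fold higher in sATF6-KI per the authors' deposited table (95% interval 1.34 to 1.65), with a log2 fold change of 0.57 ± 0.07, and stood 219th among the genes called higher. Its partners and relatives did not pass the threshold. Clock was at 0.04 ± 0.07 and Npas2 at 0.18 ± 0.09 on the log2 scale per the authors' deposited table, and Arntl2, a paralog of Arntl, at 0.18 ± 0.12. Of the ROR receptors, which activate Arntl at ROR elements, 2 had log2 fold changes of 0.18 ± 0.07 (Rora, authors' adjusted p = 0.127) and 0.07 ± 0.10 (Rorb) per the authors' deposited table. None of these 5 activators was called by the authors' DESeq2 test, where 5.34% of all genes were. Of the 5, 1 had an unadjusted p under 0.05, Rora, beside 1425 higher and 1319 lower of all 17385 genes.

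The products of the REV-ERB genes compete with ROR receptors for the same element. Nr1d2, for REV-ERB beta (ENSMUSG00000021775, chromosome 14 from 18204054 to 18239127, GRCm38), was 1.15-fold lower in sATF6-KI per the authors' deposited table (95% interval 1.06 to 1.26). On the log2 scale this is -0.21, with an interval of -0.34 to -0.08. Nr1d1, for REV-ERB alpha (ENSMUSG00000020889, chromosome 11 from 98767932 to 98775333, GRCm38), had a log2 fold change of 0.01 ± 0.07 per the authors' deposited table (95% interval -0.13 to 0.14). The intervals of the REV-ERB genes overlap, and their difference was not tested. Nr1d1 shares 263 exon bases in GENCODE M21 with Thra, the thyroid hormone receptor alpha gene on the opposite strand. Thra had a baseMean of 32576 against 3225 for Nr1d1 and a log2 fold change of -0.19 ± 0.07 per the authors' deposited table (authors' adjusted p = 0.0751). The kit marks strand, but the counting's strand setting is not stated in the sources used here, so the value of Nr1d1 is uncertain.

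The remaining repressors among the clock genes described here were all lower. Bhlhe40, for DEC1 (ENSMUSG00000030103, chromosome 6 from 108660629 to 108666925, GRCm38), was 1.19-fold lower per the authors' deposited table (95% interval 1.08 to 1.32). Bhlhe41, for DEC2 (ENSMUSG00000030256, chromosome 6 from 145858243 to 145865558, GRCm38), was 1.28-fold lower (95% interval 1.13 to 1.44) per the authors' deposited table. DEC proteins are basic helix-loop-helix repressors that compete with BMAL1 and CLOCK for the E-box. Their 2 log2 fold changes, -0.26 ± 0.07 and -0.35 ± 0.09 per the authors' deposited table, have overlapping 95% intervals.

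Gm129 (ENSMUSG00000038550, chromosome 3 from 95878503 to 95882251, GRCm38) encodes CHRONO, which binds BMAL1 and blocks its activity. It was 1.57-fold lower in sATF6-KI per the authors' deposited table (95% interval 1.25 to 1.98), with a log2 fold change of -0.65 ± 0.17. This was the largest decrease among the 10 and the seventh in size among the 336 genes called lower, and its error was also the widest of the 10.

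Dbp (ENSMUSG00000059824, chromosome 7 from 45705088 to 45710203, GRCm38) carries the clock's output to D-box genes. It was 1.22-fold lower in sATF6-KI per the authors' deposited table (95% interval 1.07 to 1.38), and its authors' adjusted p of 0.0462 lay nearest to the threshold among the 9 called. Dbp belongs to the PAR bZIP factors, and both of its relatives fell as well. Tef was 1.22-fold lower (95% interval 1.12 to 1.33, authors' adjusted p = 0.000202) per the authors' deposited table. Hlf was 1.17-fold lower per the authors' deposited table (95% interval 1.07 to 1.28, authors' adjusted p = 0.0124). Nfil3, which represses through the same D-box, was at 0.22 ± 0.12 on the log2 scale per the authors' deposited table (authors' adjusted p = 0.352).

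Overlapping genes share exon bases with 4 further members. Bhlhe41 shares 1280 exon bases with Gm43909, Dbp 539 with Sphk2 and Bhlhe40 118 with 0610040F04Rik, each on the opposite strand in GENCODE M21. Sphk2, a sphingosine kinase, had a log2 fold change of -0.06 ± 0.08 and 0610040F04Rik of 0.09 ± 0.50 per the authors' deposited table, and Gm43909 was not among its genes. Arntl overlaps Gm45355 by 33 exon bases, also on the opposite strand. The counting's strand setting is not stated in the sources used here, so the values of these 4 members are uncertain too. Gm129 overlaps C920021L13Rik on the opposite strand and Per3 overlaps Camta1 on the same strand, each with 0 shared exon bases. Camta1 had a baseMean of 18166 against 1365 for Per3, and a log2 fold change of 0.04 ± 0.07 per the authors' deposited table. The part of Camta1 reads in the value of Per3 was not tested.

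Levels were compared per kb of exon, the authors' baseMean over the exon length of GENCODE M21, as a mean over all libraries of both groups. Nr1d1 was highest at 1048 normalized counts per kb, subject to the overlap with Thra, and Per1 came next at 960. Bhlhe40 followed at 764, Dbp at 575 and Nr1d2 at 573. Lower levels per kb were those of Bhlhe41 at 269, Arntl at 222, Per2 at 198, Per3 at 142 and Gm129 at 89.6 normalized counts per kb. The median over the 17166 genes with a match was 150, so 8 of the 10 clock genes lay above it. No spread over samples can be given with these levels, so neighbours in this order cannot be told apart. Since the mean covers both groups, a gene that was higher in sATF6-KI, such as Per1, has part of that difference in its level.

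**Figure D3:**
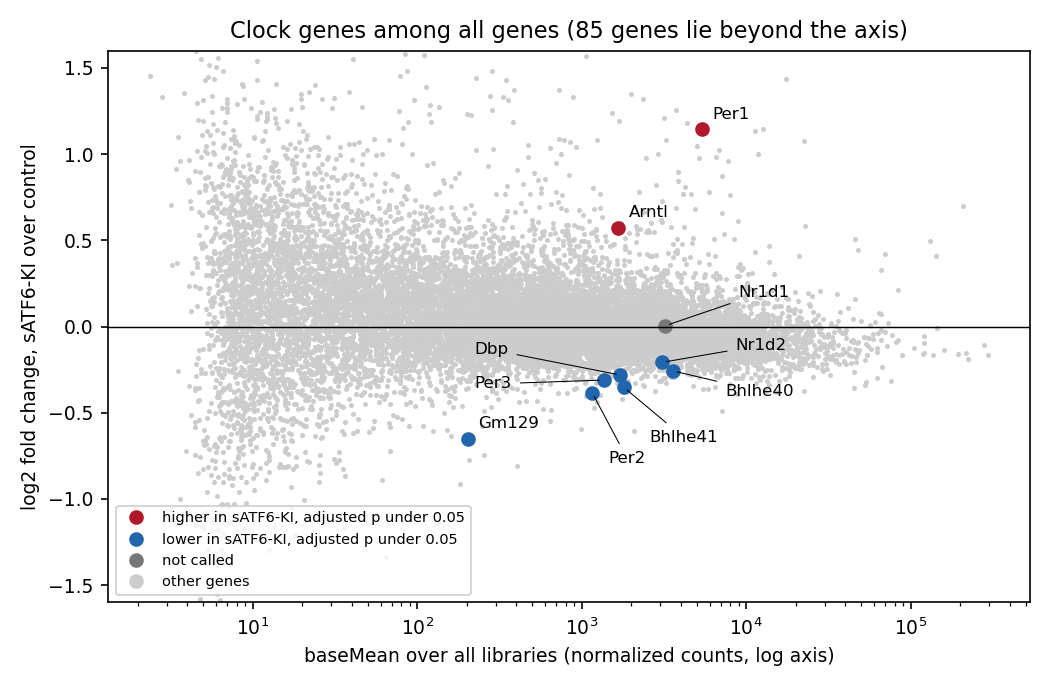
Authors' baseMean over all libraries (log axis) against the log2 fold change of sATF6-KI over control, for the 10 clock genes in colour and the other genes in grey. Per1 (baseMean 5406) and Arntl (1667) lie above the 7 lower clock genes and Nr1d1, and Gm129 (203) is the least abundant of the 10.

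Other clock genes were taken from 4 lists. Of these 23 genes 2 fell, namely Tef and Hlf, where 1.93% of all genes fell, and none rose, where 3.41% did. On the log2 scale 20 of the 23 lay within 0.2 of 0. The share of all genes in that range was not counted, so nothing is read from this. CRY proteins are the strongest repressors of CLOCK and BMAL1, and Cry1 was at -0.01 ± 0.12 and Cry2 at 0.02 ± 0.06 on the log2 scale per the authors' deposited table. None of the 5 CRY genes and partners was called by the authors' DESeq2 test, also not at an unadjusted p under 0.05, with Timeless at 0.17 ± 0.19, Nono at -0.05 ± 0.06 and Wdr5 at 0.06 ± 0.08 on the log2 scale per the authors' deposited table. Kinases and enzymes that add or remove ubiquitin set how long PER and CRY last. The authors' DESeq2 test called none of 9. Beside 1425 upward and 1319 downward of all 17385 genes, an unadjusted p under 0.05 was reached by 1 upward and 1 downward of the 9. They were Gsk3b at 0.14 ± 0.06 and Fbxw11 at -0.14 ± 0.06 on the log2 scale per the authors' deposited table, and Usp2 was at -0.09 ± 0.06.

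Among 10 genes whose RNA cycles over the day in many tissues, the authors' DESeq2 test called none, and none had an unadjusted p under 0.05. Their median log2 fold change was 0.01. Tspan4, a tetraspanin, was at -0.17 ± 0.12, Leo1 at 0.11 ± 0.08 and Wee1, a kinase that delays mitosis, at -0.11 ± 0.11 on the log2 scale per the authors' deposited table.

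Genes that share the inducers of Per1 were read beside it. Of 18 activity-induced genes 1 fell and none rose (1.93% of all genes fell), with a median log2 fold change of -0.04. The 1 was Nr4a3, an orphan nuclear receptor, at 1.27-fold lower per the authors' deposited table (authors' adjusted p = 0.000648). The salt-inducible kinase gene Sik1 was at 0.27 ± 0.12 (authors' adjusted p = 0.214) and Fosl2 at -0.19 ± 0.08 on the log2 scale per the authors' deposited table. Fos, the most used marker of neuronal activity, was at 0.17 ± 0.39 and Arc at 0.03 ± 0.10 per the authors' deposited table. Of 11 genes of the glucocorticoid response none was called by the authors' DESeq2 test, where 5.34% of all genes were. At an unadjusted p under 0.05, 1 of the 11 was higher, beside 1425 of all 17385 genes. The 1 was Plin4 at 0.59 ± 0.27 on the log2 scale per the authors' deposited table. Fkbp5, a chaperone of the glucocorticoid receptor, was at -0.17 ± 0.09, and Errfi1, a feedback inhibitor of EGF receptors, at -0.20 ± 0.11 per the authors' deposited table.

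**Figure D4:**
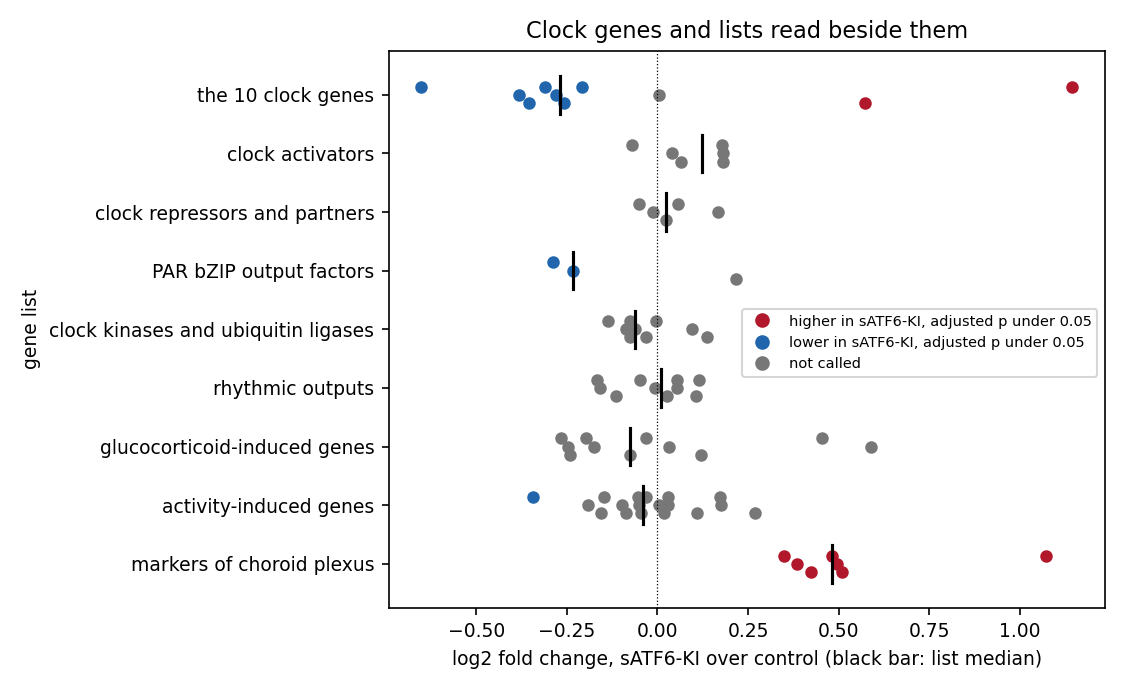
Log2 fold change of sATF6-KI over control for the 10 clock genes and 8 lists, 1 point a gene, with black bars for list medians. The clock genes run from -0.65 to 1.14, Tef and Hlf fell, and the 7 choroid plexus markers all lie above 0.

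Markers of other cells moved in the same comparison, in which 3.41% of all genes were called higher and 1.93% lower. All 7 choroid plexus markers rose, with log2 fold changes of 0.35 to 1.07 and a median of 0.48, the highest being Tmem72 at 2.10-fold per the authors' deposited table. Of 6 astrocyte markers 1 fell and none rose, with a median log2 fold change of -0.19, and of 7 glutamatergic neuron markers 1 fell and none rose, with a median of -0.13. At an unadjusted p under 0.05, 4 of the astrocyte and 4 of the glutamatergic markers were lower, beside 1319 of all 17385 genes, and all 6 astrocyte markers had a log2 fold change below 0. The 2 called were Aldoc at 1.19-fold and Itpka at 1.40-fold lower per the authors' deposited table. Of 6 microglia markers 1 fell, P2ry12 at 1.23-fold lower per the authors' deposited table, and of 6 endothelial and mural markers 1 rose, Pdgfrb at 1.19-fold. All 6 endothelial and mural markers had a log2 fold change above 0, with a median of 0.13. At an unadjusted p under 0.05, 2 of them were higher, beside 1425 of all 17385 genes. None of the 6 interneuron and 6 oligodendrocyte markers was called by the authors' DESeq2 test, with 0 and 2 lower at an unadjusted p under 0.05.

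The 8 hypothalamic markers listed in the table had a median log2 fold change of 1.08 with wide errors. None of the 8 was called by the authors' DESeq2 test, where 5.34% of all genes were. At an unadjusted p under 0.05, 2 of the 8 were higher, beside 1425 of all 17385 genes. The 2 were Hcrt at a baseMean of 4 and Six6 at 6.56. Avp, the vasopressin gene, was at 4.88 ± 2.51 on the log2 scale per the authors' deposited table. The part of these cell markers in the clock gene results was not tested.

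Genes beside the clock genes on the chromosome were read as well. Within 100 kb of the 10 clock genes 58 other genes were measured, of which 3 rose and 2 fell, or 8.62%, beside 5.34% of all genes. Per1 had 3 of these 5 among its 12 measured neighbours. Vamp2, a SNARE protein of synaptic vesicles that lies 2.83 kb before Per1, rose by 0.16 ± 0.05 on the log2 scale per the authors' deposited table (authors' adjusted p = 0.0407). Aloxe3, an epidermal lipoxygenase, rose by 0.39 ± 0.11 on the log2 scale per the authors' deposited table (authors' adjusted p = 0.0186). Alox12b, its relative 47.0 kb beyond Per1, was 1.88-fold lower per the authors' deposited table (authors' adjusted p = 3.04e-05). Scly, a selenocysteine lyase 94.9 kb from Per2, rose by 0.45 ± 0.10 on the log2 scale per the authors' deposited table, and Sult2b1, a sulfotransferase 19.8 kb from Dbp, fell by 0.49 ± 0.15.

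**Figure D5:**
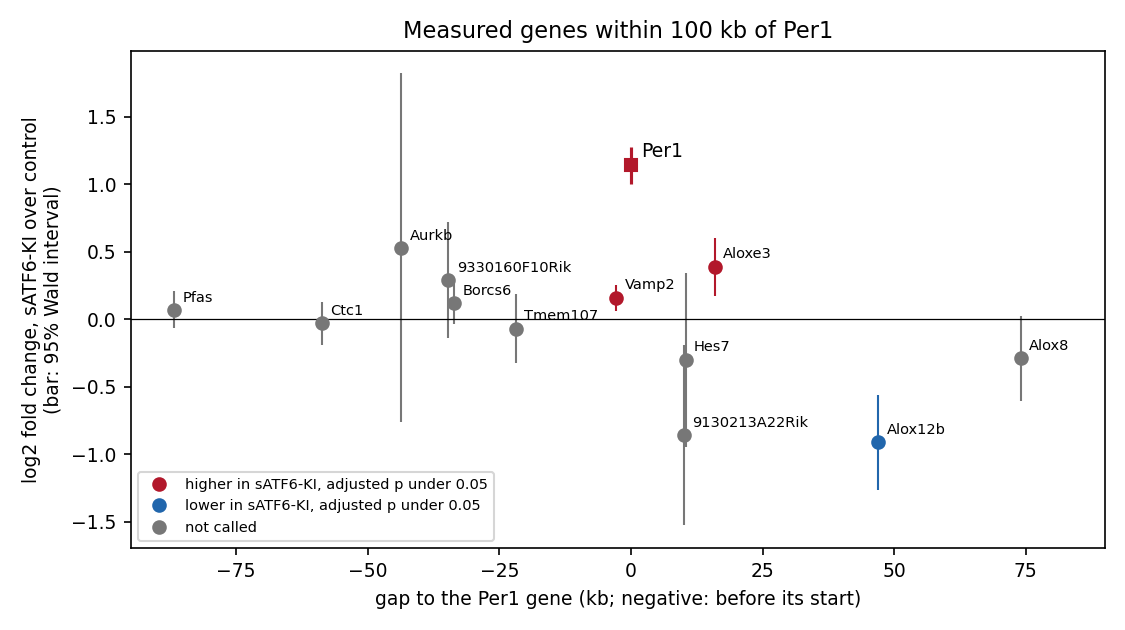
Log2 fold change of sATF6-KI over control, with 95% Wald intervals, for Per1 (square) and the 12 measured genes within 100 kb of it, by the gap to Per1 in kb. Vamp2 (0.16) and Aloxe3 (0.39) rose, Alox12b (-0.91) fell, and the other 9 were not called.

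Families related to the clock proteins, added after the data were seen, held no call of the authors' DESeq2 test. Of 7 bHLH-PAS relatives of BMAL1 and CLOCK, such as Arnt at 0.15 ± 0.09 and Epas1 at 0.13 ± 0.07 on the log2 scale per the authors' deposited table, 1 was higher at an unadjusted p under 0.05. None of 6 cofactors of REV-ERB and ROR receptors had an unadjusted p under 0.05, and Ncor1, the corepressor through which REV-ERB acts, was at -0.10 ± 0.06 per the authors' deposited table. Of 7 genes for CREB, its relatives and coactivators, 1 upward and 1 downward reached an unadjusted p under 0.05. They were Crtc2 at 0.18 ± 0.09 and Crtc1 at -0.16 ± 0.06 (authors' adjusted p = 0.0882) per the authors' deposited table.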

How the data were processed

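Messenger RNA of the hippocampus was sequenced in 6 samples, 3 sATF6-KI and 3 control. Libraries were made with a stranded KAPA kit, per the labels' protocols, and Trim Galore, cutadapt, STAR, HTSeq and DESeq2 are named without versions, per the submitters' processing notes. Genome build, annotation, strand setting and count filter are not stated in the sources used here. For each gene the authors' deposited table gives, per the file headers, a log2 fold change, a Wald statistic (a score with no fixed range), a p-value and an adjusted p (false discovery rate). Its baseMean column, which the headers do not explain, is read as the authors' mean normalized expression signal over all libraries. Another 6 columns, of single libraries, have names that fit no label and were not used in any step. Depth and values per sample are therefore unknown here, and the planned edgeR fit was not run.

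A two-sided normal p from the Wald statistic differed from the deposited p-value by 2.89e-15 or less. The error used, a Wald standard error, is the log2 fold change over the statistic, because the deposited error, also a score here, is smaller by at least 1.05 times and has the form of a shrunken one. Genes were called at an adjusted p under 0.05 over all 17385 genes. The call counting and the motif search were tested on simulated data. Scripts ran in Python 3.11.15 with numpy 2.4.6, pandas 2.3.3, matplotlib 3.10.9 and scipy 1.17.1. Coordinates and exon lengths are those of GENCODE M21 (GRCm38), matched by gene ID for 17166 genes, and promoters are RefSeq's, matched by symbol. Protein sequences were not analysed here, and 1 listed gene is not reported here.

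Members, lists and motifs were chosen with earlier results of these data known. Named are all members, each called gene of the other lists (of the ATF6 targets and choroid plexus markers mostly a summary), and otherwise up to 3 genes of a clock list with the smallest p. Clock, Cry1, Cry2, Rorb, Fos, Arc, Vip and Rgs16, the overlapping and neighbouring genes, Atf6, Esr1 and the families added last were named outside this rule, after their values were seen.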

Additional observations from a re-analysis of the deposited data

How the results depend on the processing

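No paired analysis was possible because the columns of single libraries fit no label. For the same reason fits without single replicates, other normalizations, edgeR, DESeq2 and limma were not run. An adjusted p under 0.01 gave 514 called genes (379 higher, 135 lower), and Bonferroni adjustment gave 268 (234 higher, 34 lower), against 928 (592 higher, 336 lower). The number lower was 529 at an adjusted p under 0.1, and 133 with a 1.2-fold minimum. Of the 7 lower clock genes 3 were called at 0.01, namely Per2, Bhlhe41 and Gm129, and 0 by Bonferroni adjustment of the authors' DESeq2 p (all 7 had an unadjusted p under 0.05). Per1 and Arntl were called under each of these settings. Nr1d2 and Bhlhe40 lay under a fold change of 1.2. These settings tighten or loosen the call by construction. Adjustment over protein-coding genes or over genes with a baseMean of at least 100 left the same 9 clock genes called. Over all genes these 2 settings called 941 of 15508 and 941 of 12777. The clock genes were chosen from this same comparison, so nothing is read from their count. Among 12590 table genes with a promoter window, E-boxes were in 11.1%, E-prime boxes in 6.2%, D-boxes in 2.61% and ROR cores in 15%. The CRE core was in 32.8% of them, the full CRE in 3.23%, the ER stress element in 0.167% and the UPRE in 0.993%. Within 200 kb of the clock genes, a distance chosen after seeing the data, 10.9% of 92 neighbours were called. The fold changes are the same deposited values under every setting, and their precision is limited to that of the authors' test.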
